A study of Homo sapiens with 9 samples.

Results

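Microexons are very short internal exons, and those described here were 3 to 30 nucleotides (nt) long in U251, an established human glioblastoma cell line. They were found in the deposited exon counts as exons of that length that were neither the first nor the last of their gene, did not touch another exon of the gene, and lay in a gene with at least 100 counts in each of 6 RNA sequencing libraries. The rule gave 880 microexons in 695 genes, out of 206550 exons in 20848 genes. The libraries were 3 of U251 cells after MSI1 knockdown and 3 of wild-type U251 control cells, and 3 more samples were iCLIP of control cells with an antibody to MSI1, which maps the bases where the protein was cross-linked to RNA. How MSI1 was knocked down, how long before harvest, and whether control cells had a mock treatment is not stated in any label, and no label says that the libraries came from separate cultures, so p-values measure the spread between libraries. The members were chosen by exon length and by gene counts, so the coverage of their genes follows from the rule and is no result.

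A microexon adds only a few amino acids to a protein, and one whose length is a multiple of 3 can be included or skipped without moving the reading frame. In neurons many such exons are switched on together by the splicing activator SRRM4 (nSR100), which acts on short exons that the repressor PTBP1 keeps out in other cells, and they often sit in proteins of the synapse, the cytoskeleton and vesicle traffic. Musashi-1 (MSI1) is an RNA-binding protein of neural stem cells that is also made in glioblastoma.

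The sequences below show the exon in capitals between 10 flanking bases of the spliced transcript in lower case, read 5' to 3' from GENCODE release 29 on GRCh38. The first set belongs to exons that were almost unread although the exons on both sides were well covered.
KDM1A, chr1:23066060-23066071, plus strand: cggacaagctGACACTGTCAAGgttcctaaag
PAICS, chr4:56446357-56446377, plus strand: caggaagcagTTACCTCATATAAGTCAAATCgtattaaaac
CASK, chrX:41622617-41622634, minus strand: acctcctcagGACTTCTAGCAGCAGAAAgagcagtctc
ITSN1, chr21:33802430-33802444, plus strand: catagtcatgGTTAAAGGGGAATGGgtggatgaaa
MEF2C, chr5:88730211-88730234, minus strand: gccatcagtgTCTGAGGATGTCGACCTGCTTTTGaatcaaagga
DCTN1, chr2:74363614-74363628, minus strand: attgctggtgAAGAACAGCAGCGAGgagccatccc
The second set belongs to exons of the same kind of gene that were read in both groups.
DST, chr6:56468982-56468999, minus strand: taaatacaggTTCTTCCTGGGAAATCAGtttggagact
PTPRS, chr19:5218787-5218798, minus strand: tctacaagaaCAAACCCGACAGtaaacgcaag
PPFIBP1, chr12:27674192-27674221, plus strand: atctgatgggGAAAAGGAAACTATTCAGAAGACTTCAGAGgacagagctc
The third set belongs to exons with some of the lowest p-values between knockdown and control.
MAP4K4, chr2:101868029-101868037, plus strand: caagcctgctGGCGAAGTGgatctgaccg
CLASP1, chr2:121409024-121409047, minus strand: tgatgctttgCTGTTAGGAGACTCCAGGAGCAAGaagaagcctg
NUDT5, chr10:12170900-12170908, minus strand: ccaaagccagGGGATGGAGagtttgtgga
SUGT1, chr13:52664035-52664057, plus strand: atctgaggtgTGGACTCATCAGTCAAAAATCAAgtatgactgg
TNS3, chr7:47280164-47280190, minus strand: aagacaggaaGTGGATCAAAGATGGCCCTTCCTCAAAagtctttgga
CYB5B, chr16:69448115-69448144, plus strand: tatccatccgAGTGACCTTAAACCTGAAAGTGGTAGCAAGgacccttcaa

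The shortest microexon had 4 nt and the median was 25 nt. At the upper limit 112 exons had 30 nt, and 76 otherwise eligible exons had 31 nt and were left out. At the lower count limit 24 microexons lay in genes whose lowest library held at least 100 but under 120 counts, and 21 exons of the right length lay in genes with a lowest count of 80 to 99. Of the 695 genes 586 held 1 microexon, while ANKRD36 held 26 and ANKRD36B held 15. Those 41 exons belong to near-identical repeats between which reads can be split wrongly, so their values are uncertain. Another 7 microexons shared bases with an exon of another gene, and 6 lay less than 20 nt from the next exon of their gene.

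Libraries held 37082699 to 42427430 gene counts in knockdown cells and 32919299 to 47277016 in control cells. Microexons took 41452, 36321 and 39982 exon counts in the knockdown libraries, against 44934, 37208 and 31267 in the control libraries. Scaled to the same total in each library (CPM, the usual library-scaled count), that was 762, 761 and 806 CPM in knockdown and 739, 752 and 747 CPM in control libraries. MSI1 itself, the target of the knockdown, had 134, 195 and 90 counts in knockdown libraries and 726, 688 and 244 in control libraries. It was lower by a log2 difference of -1.97 ± 0.42 (SE), which gave an adjusted p of 0.0699 in edgeR's quasi-likelihood test and 0.00279 with the replicate number as a block. Its paralog MSI2 differed by -0.01 on the log2 scale (adjusted p = 0.989). The glial and glioma markers VIM, NES, CD44, SOX2, EGFR and GFAP were read in all 6 libraries, at mean levels of 74.4 (GFAP) to 3305 (CD44) CPM in knockdown cells and 65.2 to 3773 in control cells, whereas CHI3L1 had at most 3 counts. Of the neuronal markers STMN2 had no count and SNAP25 averaged 3.94 ± 0.63 CPM in knockdown and 1.93 ± 0.76 CPM in control libraries (SD, n = 3 each), while TUBB3 and SYT1 were clearly read. RBFOX3, also a neuronal marker, had 2, 30 and 15 counts in knockdown and 2, 5 and 2 in control libraries. SOX2 was lower, at 89.9 ± 5.001 CPM in knockdown and 152 ± 15.02 CPM in control libraries (log2 difference -0.76; adjusted p = 0.0432 in edgeR), and EGFR differed by -0.57 (adjusted p = 0.0661, and 0.00673 with the block). Of markers of other cell types OLIG2 and CD3E had no count in any library and PTPRC and PECAM1 at most 2, while MBP had 34 to 79 counts, VWF 4 to 38 and CD14 8 to 30. Of the fibroblast markers DCN had at most 10 counts in a library and LUM at most 6, while the collagens were read. COL1A2 averaged 1224 ± 207 CPM in knockdown and 1228 ± 222 CPM in control libraries. COL1A1 averaged 123 ± 45.5 CPM in knockdown and 47.7 ± 19.3 CPM in control libraries (adjusted p = 0.135 in edgeR, 0.0155 with the block and 0.00459 in DESeq2). What part these differences have in the microexon values was not tested.

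Reading frame and annotation were not used by the rule. Lengths divisible by 3 made up 57.5% of the microexons (506 of 880), against 39.3% of the 107808 longer internal exons in the same kind of gene. By gene name, strand, exon length and the lengths of both flanking introns, 784 microexons were matched to 1 GENCODE exon each, and 752 of these were coding. At least 1 transcript skipped the exon for 390 of them (49.7%), against 19.0% of the matched longer exons. Among the skipped microexons 72.8% had a length divisible by 3, compared with 47.7% of those found in every transcript that spans them. These are counts over an annotation and carry no test.

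To describe use, the reads of each exon were divided by the number of positions from which a 50-base read can touch it (its length plus 49), and this density was given as a percentage of the mean density of the 2 neighbouring exons. It could be set for the 662 microexons whose neighbours together had at least 20 reads in each library. The median relative density was 49.6% in knockdown cells (quartiles 9.83% and 77.1%) and 49.8% in control cells (quartiles 9.37% and 77.9%). Single libraries had medians of 47.7%, 46.9% and 44.9% after knockdown, and of 48.95%, 47.2% and 44.3% in control, so the groups overlapped. In each group 143 microexons were under 5%, and 132 were under 5% in both. How far the level lies below 100% depends on the length scale: per nucleotide of exon length alone the medians were 107.5% in knockdown and 106.7% in control cells.

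On the scale used here, which divides reads by the positions from which a read can touch the exon, relative density climbed with exon length. Per nucleotide of exon length alone, medians by length class are not given here. The median of all microexons changed with that scale, as given above. Whether the climb depends on the scale was not tested. Among microexons that every spanning transcript includes, the median was 31.4% in knockdown and 26.4% in control cells at 3 to 15 nt (14 exons), and 76.6% in knockdown and 81.4% in control cells at 26 to 30 nt (146 exons). Included exons of 31 to 60 nt reached 100.7% in knockdown and 101.1% in control cells. Which aligner was used is not given in the sources used here, and whether reads across very short exons were lost in alignment was not tested. In exons that some transcript skips, the medians were 6.07% in knockdown and 5.17% in control cells at 3 to 15 nt, and 54.2% in knockdown and 51.1% in control cells at 26 to 30 nt.

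**Figure D1:**
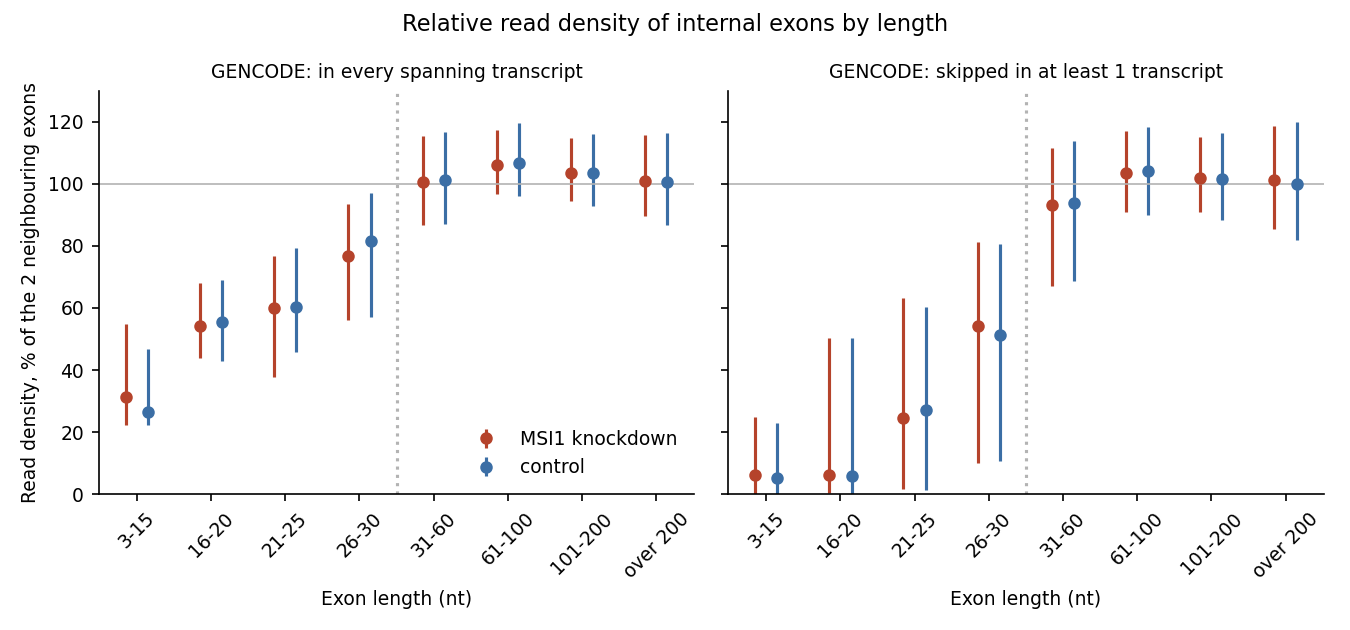
Median relative read density (y axis, % of the 2 neighbouring exons; bars, quartiles over exons) of internal exons by length class in nt (x axis), for exons in every spanning transcript (left) and exons skipped in a transcript (right), MSI1 knockdown left of control in each pair. Classes left of the dotted line are microexons; in the left panel the 26 to 30 nt class is at 76.6% in knockdown and 81.4% in control.

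Most of the low values belonged to skipped exons that keep the reading frame. The 235 skipped microexons with a length divisible by 3 had a median of 11.7% in knockdown and 10.99% in control cells. The 91 skipped ones with other lengths stood at 63.6% in knockdown and 63.8% in control cells, and the 281 that every transcript includes at 64.4% in knockdown and 67.6% in control cells. Of the 132 exons under 5% in both groups, 90 were skipped exons with a length divisible by 3.

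**Figure D2:**
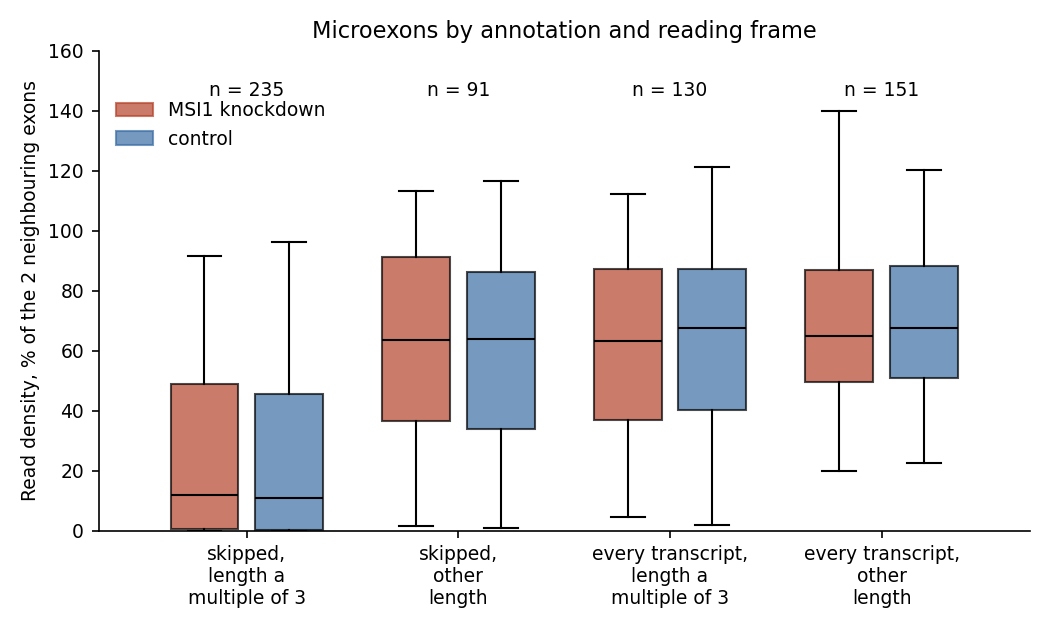
Relative read density (y axis, % of the 2 neighbouring exons) of microexons by annotation and by whether the length is a multiple of 3, with MSI1 knockdown left of control. Boxes give quartiles and median and whiskers the 5th and 95th percentiles; the skipped multiple-of-3 exons have medians of 11.7% in knockdown and 10.99% in control.

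Of the 331 microexons whose neighbours had at least 1216 reads over the 6 libraries, 30 had no read in control cells. The 5 of these with the most neighbour reads in control are described here, so their silence in control follows from the choice, and they had 0 to 2 reads in knockdown cells. KDM1A, a histone demethylase, has a 12 nt exon (exon 10, hg18 chr1:23265140-23265151) that is used in neurons. It had 0, 0 and 2 reads in knockdown libraries and none in control libraries, although its neighbours had 6359 reads in knockdown and 6006 in control cells. A count of 0 in control allows a relative density of up to 0.273%, taking 3 reads over the 3 libraries as the limit, which covers counting error only. The 21 nt exons of PAICS, an enzyme of purine synthesis, and RAB3GAP1, which regulates the small GTPase RAB3, had no read in any library. For PAICS that allows up to 0.186% in knockdown and 0.172% in control cells. SYNJ1, a lipid phosphatase of synaptic vesicle recycling, and DYNC1I2, an intermediate chain of the motor protein dynein, had 1 read each, in a knockdown library. The absence of reads allows up to 1.601% in knockdown and 1.26% in control cells for RAB3GAP1, and 3 reads would be 5.68% in knockdown and 5.60% in control cells for SYNJ1.

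At the other end were exons that outran their neighbours, again chosen by control density among those 331, so that higher ratios on fewer reads, such as that of ANK2 given below, are left out. PSMA4, a subunit of the proteasome, had a 26 nt exon 2 at 57.3%, 266% and 352% of its neighbours in knockdown libraries, against 74.4%, 333% and 252% in control libraries. Replicate 1 was low in both groups, and the spread within a group was far wider than the difference between groups. Exon 2 of COL1A2, a chain of type I collagen, has 11 nt and averaged 144% ± 54.2 in knockdown and 235% ± 88.1 in control libraries (SD, n = 3 each). Its downstream neighbour has only 15 nt, is itself a microexon and had no read outside knockdown replicate 2, where it had 1. An almost unread exon thus lowers the base of this ratio. DDX1, PTCD3 and RAI14 had exons of 29 or 30 nt at means of 162% to 192% in knockdown and 154.9% to 170% in control libraries.

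A list of 52 genes known for microexons in nervous tissue or for regulated short exons gave 47 microexons in 29 genes, 43 of them with a length divisible by 3. For 44 the neighbours were covered, and their median relative density was 1.99% in knockdown and 1.87% in control cells, beside 49.6% in knockdown and 49.8% in control cells for all 662. The skipped microexons with a length divisible by 3 had the medians of 11.7% in knockdown and 10.99% in control cells given above. By length they had 5.15% in knockdown and 3.71% in control cells at 3 to 15 nt. At 16 to 20 nt they had 1.26% in knockdown and 1.65% in control cells. The medians were 6.39% in knockdown and 5.61% in control cells at 21 to 25 nt, and 40.3% in each group at 26 to 30 nt. In both groups 27 of the 44 were under 5%, and 12 had no read at all. The unread exons included those of CASK (18 nt), a scaffold of cell junctions and synapses, and MEF2C (24 nt), a transcription factor of neurons and muscle. Those of CPEB4 (24 nt), which binds messenger RNA, and of the receptor phosphatase PTPRK (18 nt) were unread too. For CASK, whose neighbours had 1220 reads in knockdown and 1224 in control cells, the absence of reads allows up to 1.18% in knockdown and 1.17% in control cells.

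Several more neuronal exons were read only a few times. The 15 nt exon of ITSN1, a scaffold of endocytosis, had 1 read in knockdown replicate 1 and none elsewhere. The 15 nt exon of the dynactin subunit DCTN1 had 0, 0 and 1 reads in knockdown and 1 in each control library. NRCAM, a neuronal adhesion molecule, had no read in its 30 nt exon and a lone read, from a knockdown library, in its 18 nt exon, beside 1000 neighbour reads in knockdown and 1205 in control cells. In MEF2A the 24 nt exon was at 3.17% ± 1.35 in knockdown and 2.71% ± 3.25 in control libraries. Low use was seen in the cytoskeletal linker MACF1, whose 18 nt exon was at 7.84% ± 1.56 in knockdown and 7.62% ± 2.87 in control libraries. The 15 nt exon of ABI1, an adaptor of the actin-regulating WAVE complex, was at 12.2% ± 1.43 in knockdown and 10.2% ± 4.41 in control libraries (SD, n = 3 each). That ABI1 exon had 6, 5 and 6 reads in knockdown and 6, 3 and 3 in control libraries.

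Listed microexons were not all silent. The 18 nt exon of dystonin (DST), a linker of cytoskeletal filaments, had 124, 90 and 86 reads in knockdown libraries and 166, 109 and 134 in control libraries. Its relative density was 45.01% ± 4.47 in knockdown and 50.8% ± 10.004 in control libraries, which overlapped. PTPRS, a receptor phosphatase of axon growth, held 5 microexons: exon 24 (12 nt) was at 48.1% ± 11.7 in knockdown and 64.9% ± 30.8 in control libraries, while exons 6, 7, 9 and 16 had 1 read between them. The 30 nt exon of liprin-beta 1 (PPFIBP1), a partner of the liprin-alpha scaffold, was at 42.3% ± 7.05 in knockdown and 56.6% ± 6.86 in control libraries. The 22 nt exon of ANK2, an ankyrin of the membrane skeleton, had 6, 5 and 10 reads in knockdown and 11, 6 and 17 in control libraries, beside an upstream exon with 0 to 3 reads a library and a downstream exon of 6255 nt, so its ratio says little. VAV2, a signalling protein of the cytoskeleton, had 2 exons of 15 nt with 0 to 1 reads a library and an exon 20 of 17 nt at 43.9% ± 16.1 in knockdown and 22.7% ± 1.70 in control libraries. The next VAV2 exon, exon 21 (22 nt), is also a microexon and is part of the base of that ratio. It had 9, 10 and 3 reads in knockdown and 6, 8 and 0 in control libraries.

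**Figure D3:**
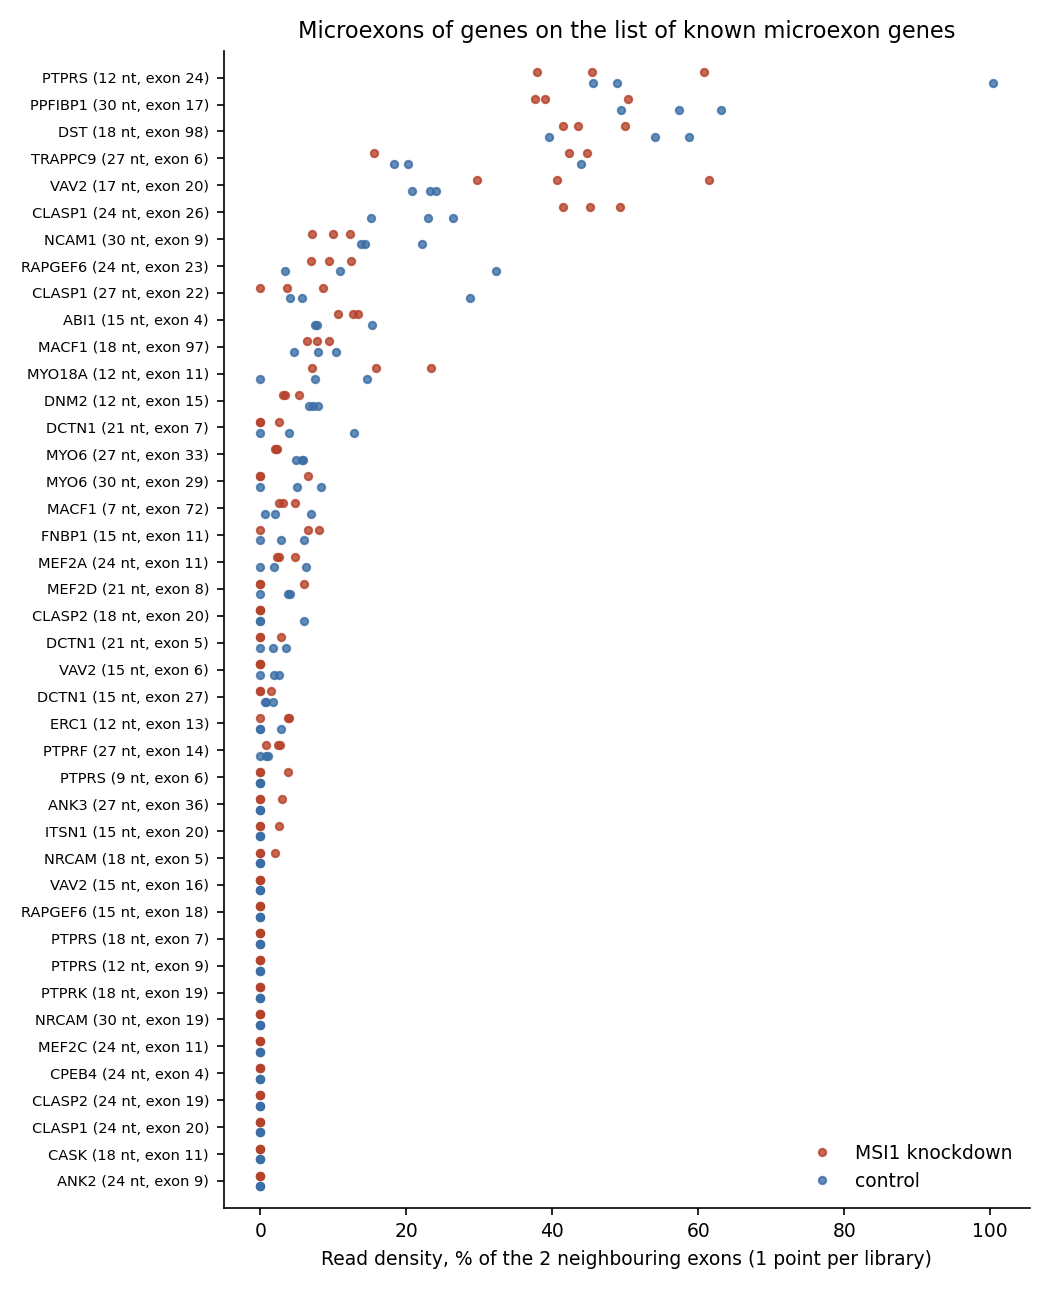
Relative read density (x axis, % of the 2 neighbouring exons) of 42 microexons from the list of known microexon genes (y axis), 1 point per library, MSI1 knockdown above control in each row. The ANK2 exon with a thinly read neighbour is left out; 27 exons lie under 5% in both groups, and DST, PPFIBP1 and PTPRS exon 24 lie above 40% on average in both.

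No microexon differed between knockdown and control after adjustment. The test was edgeR's quasi-likelihood test on the exon counts with the neighbours' density as offset, fitted on 95936 internal exons with at least 10 reads, and 521 microexons in 483 genes entered it. It called 0 of the 521, with a lowest adjusted p of 1.00, and 0 of all 95936 exons (0.0%). At an unadjusted p below 0.05 stood 33 microexons (6.33%), against 2.05% of all tested exons. Of these 16 were higher in knockdown (3.07% of the microexons, against 1.02% of all tested exons) and 17 lower (3.26%, against 1.03%). With the replicate number as a block 0 were called and 52 had an unadjusted p below 0.05 (9.98%, against 4.83% of all tested exons). DESeq2 gave an adjusted p to only 164 of the 521 microexons and called 0 of them, against 11 exons of any length (0.0115% of all tested exons). At an unadjusted p below 0.05 it had 15 microexons (2.88%, against 0.456% of all tested exons). The exon usage test of edgeR, diffSpliceDGE, took in 395 microexons and called 0, with 1 at an unadjusted p below 0.05 (0.253%, against 0.214% of all exons it tested).

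The tested microexons had a median log2 difference of 0.02, with quartiles of -0.21 and 0.20, and the tested exons of all lengths had a median of 0.00 with quartiles of -0.08 and 0.08. They also rested on fewer reads, a median of 125 over the 6 libraries against 799. Of the tested microexons 269 were above 0 and 252 below, and in 64 (12.3%) the 3 knockdown values did not overlap the 3 control values, against 8.07% of all tested exons. In simulated counts the same test recovered 42% of 2-fold and 84% of 4-fold changes in microexons with at least 60 reads, 50 exons of each size. As many longer exons were changed in the same simulation of 95936 exons, and 30 of the exons left unchanged were called. Adjustment depends on how many exons change, so recovery may be lower where fewer do. The simulated libraries varied independently and held no variation shared by same-numbered libraries. They also differed from the real fit, which called 0 exons and had 2.05% of all tested exons at an unadjusted p below 0.05. Recovery in the real counts may therefore be lower than these figures.

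**Figure D4:**
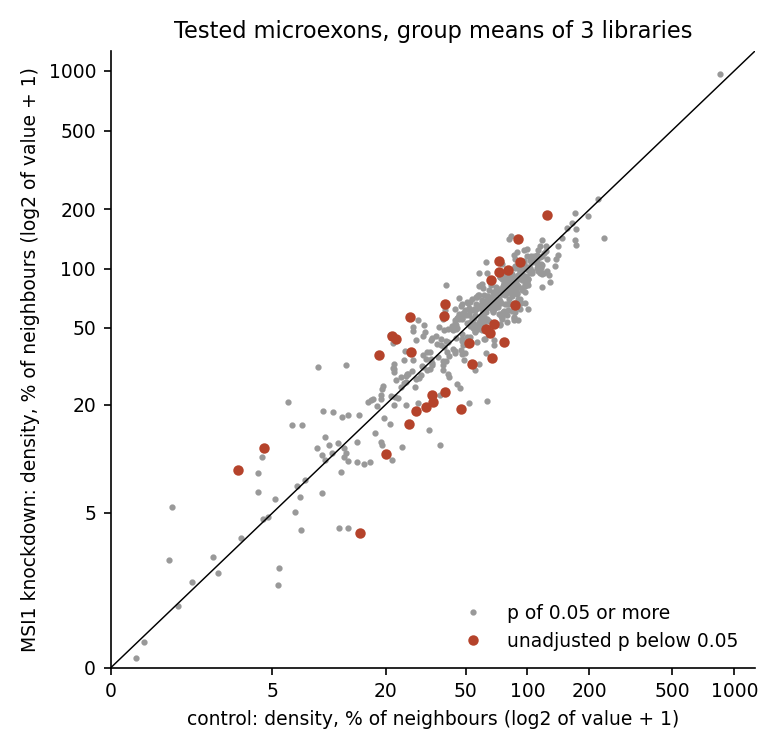
Mean relative density of the 521 tested microexons in MSI1 knockdown (y axis) against control (x axis), each the mean of 3 libraries in % of the 2 neighbouring exons, on a log2 scale of the value plus 1. Points scatter about the line of equality; the 33 with an unadjusted p below 0.05 are drawn larger and lie on both sides of it, and 0 passed adjustment.

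Microexons from the 8 lowest p-values in each direction, among those with at least 5 reads in every library of a group, are given as values that did not pass the test. They were picked by p-value in these same libraries, so a lack of overlap between groups follows in part from the choice. MAP4K4, a kinase of cell migration, has a 9 nt exon 21 (hg18 chr2:101850923-101850931) with 22, 14 and 8 reads in knockdown libraries and 11, 7 and 2 in control libraries. It was at 11.7% ± 2.87 of its neighbours in knockdown and 4.47% ± 1.70 in control libraries, a log2 difference of 1.30 ± 0.32 (SE) with no overlap between groups. Of the annotated transcripts that span this exon 2 include it and 11 skip it.

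CLASP1, which steadies growing microtubule ends, has a 24 nt exon 26 (hg18 chr2:121883070-121883093) with 11 reads in each knockdown library and 9, 13 and 12 in control libraries. Its neighbours had 473 reads in knockdown and 1039 in control cells, so the relative density was 45.3% ± 3.93 in knockdown and 21.6% ± 5.76 in control libraries. The log2 difference was 1.08 ± 0.29 (SE) relative to the neighbours, and 0.00 when the exon's counts were scaled by library size alone. The gene as a whole fell, as given below with the other genes that hold microexons. The other 2 CLASP1 microexons had 13 reads (exon 22) and none (exon 20) over the 6 libraries.

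The 9 nt exon of NUDT5, which cleaves ADP-ribose, had 29, 12 and 17 reads in knockdown and 9, 10 and 12 in control libraries. Its density was 36.5% ± 14.996 in knockdown and 18.6% ± 6.93 in control libraries, with the lowest knockdown value just under the highest control value. In SARNP, a protein of messenger RNA export, adjacent microexons leaned opposite ways: exon 7 (29 nt) was at 142.6% ± 20.3 in knockdown and 90.2% ± 31.1 in control libraries, and exon 8 (26 nt) at 18.5% ± 1.96 in knockdown and 28.3% ± 10.8 in control libraries. Each is a neighbour of the other, so their ratios are not independent. COL18A1, the collagen that endostatin is cut from, had 115, 148 and 39 reads in exon 10 in knockdown and 72, 91 and 0 in control libraries, and its control mean of 26.6% ± 23.5, against 56.8% ± 3.90 in knockdown, includes that empty library.

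Complement factor I (CFI) and YTHDF2, a reader of methylated RNA, complete those with higher values in knockdown. CFI exon 7 was at 37.6% ± 3.04 in knockdown and 26.98% ± 3.85 in control libraries. For YTHDF2 exon 2 the values were 96.4% ± 10.98 in knockdown and 73.1% ± 1.53 in control libraries, but the log2 difference of 0.41 became -0.65 with only the upstream neighbour, the first exon, as the base.

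Among the lower ones, PPP3CC, a catalytic subunit of the phosphatase calcineurin, had 8, 5 and 4 reads in its 30 nt exon 13 in knockdown and 15, 10 and 12 in control libraries. It was at 18.9% ± 3.65 in knockdown and 47.4% ± 9.61 in control libraries, a log2 difference of -1.26 ± 0.31 (SE) with no overlap. SUGT1, a partner of the chaperone HSP90, had 20, 13 and 18 reads in its 23 nt exon 9 in knockdown and 38, 30 and 31 in control libraries. It was at 42.5% ± 0.69 in knockdown and 76.9% ± 16.4 in control libraries (log2 difference -0.82 ± 0.22, SE), again with no overlap. The upstream neighbour of this exon, of 17 nt, had no read outside control replicate 1, where it had 1. An almost unread exon thus lowers the base of these percentages.

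TNS3, a tensin of focal adhesions, has a 27 nt exon 30 whose log2 difference had the smallest SE among these lowest-p exons. It had 115, 109 and 119 reads in knockdown and 148, 165 and 139 in control libraries. The relative density was 42.0% ± 1.24 in knockdown and 52.2% ± 1.40 in control libraries, and the log2 difference was small, -0.31 ± 0.08 (SE). The 30 nt exon of CYB5B, a cytochrome of the outer mitochondrial membrane, was at 52.7% ± 6.35 in knockdown and 69.0% ± 9.44 in control libraries, with no overlap. ANXA6, a membrane-binding annexin, was at 15.8% ± 3.17 in knockdown and 26.2% ± 8.61 in control libraries, also apart. Its log2 difference of -0.81 was -0.14 with the exon's counts scaled by library size alone, and -0.44 without control replicate 1. In ANLN, a protein of cell division, in WDR61, which is part of RNA-processing complexes, and in ZCRB1, of the minor spliceosome, the groups overlapped, at means of 20.7% (ANLN), 32.6% (WDR61) and 65.5% (ZCRB1) in knockdown and 34.5% (ANLN), 53.9% (WDR61) and 87.2% (ZCRB1) in control libraries. By library size alone the log2 difference was -0.36 for ANLN, against -0.80 relative to the neighbours. WDR61 had -0.36 by library size and -0.43 without control replicate 1, against -0.76 with all libraries relative to the neighbours.

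**Figure D5:**
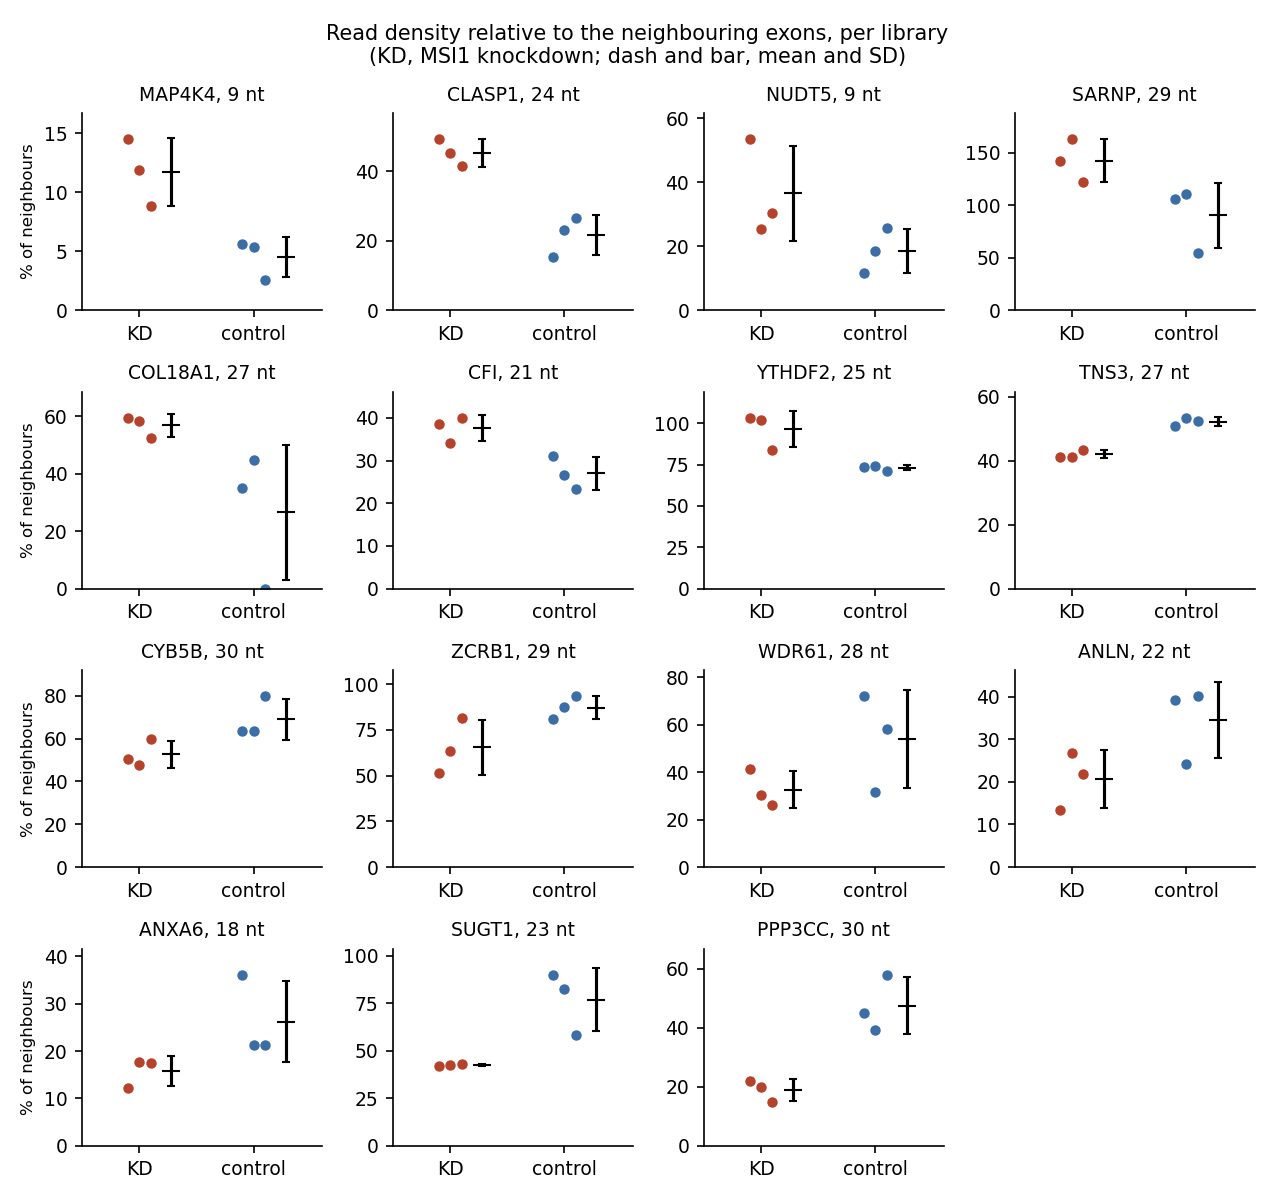
Relative read density (y axes, % of the 2 neighbouring exons, each from 0) of 15 microexons with the lowest p-values by direction, 1 point per library, MSI1 knockdown left of control, with mean and SD beside the points. The first 7 panels are higher in knockdown and the last 8 lower, and no exon passed adjustment. In 11 of the 15 panels the groups do not overlap, which follows in part from picking exons by p-value in these libraries. The share without overlap was 12.3% of all tested microexons and 8.07% of all tested exons.

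The 17 tested exons from the list of known microexon genes had a median log2 difference of 0.04, with 9 above 0 and 8 below. An unadjusted p below 0.05 in edgeR was seen for 2 of the 17, CLASP1 exon 26 and VAV2 exon 20, and 0 were called. Such p-values were seen for 6.33% of all tested microexons and 2.05% of all tested exons.

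The genes that hold microexons were also compared in level. In edgeR's quasi-likelihood test across 13856 genes 18 of the 695 passed an adjusted p of 0.05 (2.59%), against 1.67% of all genes. Higher in knockdown were 6 of the 695, against 107 of the 13856 (0.772%). Lower in knockdown were 12 of the 695, against 125 of the 13856 (0.902%). With the replicate number as a block 159 passed (22.9%, against 17.3% of all genes), 57 higher and 102 lower. The median log2 difference was -0.07 for these genes and -0.04 for all genes. Fewer cells with the RNA and less RNA per cell cannot be told apart in such bulk libraries. Leaving out any library other than control replicate 3 left 0 or 1 gene, and leaving out control replicate 3 gave 63. The share of all genes called in those fits is not given here, so these counts cannot be set against it.

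The 18 called genes held 24 microexons, of which 14 in 11 genes could be tested relative to their neighbours. Their log2 differences ran from -0.86 (CLASP1 exon 22) to 1.08 (CLASP1 exon 26), with 7 above 0 and 7 below. In edgeR 2 of the 14 had an unadjusted p below 0.05, CLASP1 exon 26, counted above too, and GTF2H3 exon 7. That share was 6.33% of all tested microexons and 2.05% of all tested exons. Values of 3 genes, chosen after they were seen, are given here. ACLY, which makes acetyl-CoA for lipid synthesis, rose to 577 ± 63.2 CPM in knockdown, against 80.7 ± 18.2 CPM in control libraries (log2 difference 2.84 ± 0.21, SE; adjusted p = 0.00485). Its 30 nt exon 14 had 88, 77 and 40 reads in knockdown and 19, 4 and 4 in control libraries. Relative to its neighbours that was 22.2% ± 4.88 in knockdown and 21.4% ± 12.4 in control libraries, where the single values were 31.1%, 7.45% and 25.7%. CALCOCO2, a receptor of selective autophagy, fell by a log2 difference of -1.13 (adjusted p = 0.0420), and its 29 nt exon 12 was at 123.5% ± 7.60 in knockdown and 123.5% ± 11.6 in control libraries. MED1, a subunit of the Mediator complex, fell by -1.51 on the log2 scale (adjusted p = 0.0132), with its 29 nt exon 6 at 116% ± 16.5 in knockdown and 104% ± 17.3 in control libraries.

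On the list of known microexon genes, 3 were among the 18. CLASP1 averaged 74.97 ± 4.27 CPM in knockdown and 158 ± 13.6 CPM in control libraries (log2 difference -1.07 ± 0.13, SE; adjusted p = 0.0149). Its relative CLASP2 fell by -1.20 on the log2 scale (adjusted p = 0.0470), and ERC1, a scaffold of synapses and cell edges, fell by -0.89 (adjusted p = 0.0225). The microexons of CLASP2 (18 and 24 nt) had 1 read between them over the 6 libraries, and the 12 nt exon of ERC1 had 3.

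Factors known to act on microexons gave no call in edgeR without the block. SRRM4, the neuronal activator, had 9, 13 and 12 counts in knockdown and 0, 5 and 4 in control libraries, too few to be tested. Its relative SRRM3 averaged 1.28 ± 0.42 CPM in knockdown and 1.43 ± 0.94 CPM in control libraries. The repressor PTBP1 was abundant, with 324 ± 70.9 CPM in knockdown and 373 ± 150 CPM in control libraries (adjusted p = 0.859). PTBP2, its neuronal relative, averaged 36.2 ± 5.30 CPM in knockdown and 41.5 ± 12.5 CPM in control libraries.

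PTBP3, listed under its older symbol ROD1, averaged 245 ± 31.5 CPM in knockdown and 114 ± 30.7 CPM in control libraries (log2 difference 1.11 ± 0.21, SE). Its adjusted p was 0.0536 in edgeR, 0.00236 with the block and 0.000876 in DESeq2. Under the block RBFOX2 (-0.35, adjusted p = 0.0213), CELF1 (-0.51, adjusted p = 0.00695) and CELF2 (-0.47, adjusted p = 0.0235), all of which regulate alternative exons, were lower in knockdown. Without it their adjusted p-values were 0.221, 0.0764 and 0.214. RBFOX1 and ELAVL4, which are made in neurons, were near 0: RBFOX1 had at most 4 counts and ELAVL4 none. Other listed factors were read at low counts. ELAVL3 had 75, 137 and 111 counts in knockdown and 82, 89 and 26 in control libraries. ELAVL2 had 17, 22 and 16 in knockdown and 11, 5 and 4 in control libraries (adjusted p = 0.164 in edgeR). NOVA1 had 42, 25 and 15 in knockdown and 20, 11 and 18 in control libraries. For NOVA2 the counts were 24, 35 and 23 in knockdown and 37, 32 and 8 in control libraries.

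The iCLIP lists, which hold the authors' single-base MSI1 sites in control cells, were searched around the microexons. Within 500 nt of the exon, on the strand of the gene, 1 of 880 microexons had a site found in all 3 lists (0.114%, exact 95% Clopper-Pearson interval 0.00288% to 0.631%), against 0.174% of the 108688 internal exons of all lengths. That exon lies in SNHG1, a non-coding host of small nucleolar RNAs, and was at 67.4% ± 5.70 in knockdown and 68.3% ± 18.8 in control libraries. No shared site fell inside a microexon. Any site of list 1 lay within 500 nt of 57.4% of microexons and 56.4% of all internal exons. List 2 gave 9.32% of microexons and 9.87% of all internal exons, and list 3 gave 13.98% and 13.7%. The 315 tested microexons with a site of list 1 had a median log2 difference of 0.04, and the 206 without one had 0.00.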

How the data were processed

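The authors deposited raw read counts per exon and per gene for each RNA library, and for iCLIP a list of single-base sites per sample with the authors' p-value for each. The build was hg18 per the submitters' processing notes. The aligner, the counting of reads and the calling of sites were not given in the sources used here, nor was strand. The labels' protocol describes iCLIP with 50-base single-end reads and combined replicates for every sample, and does not describe the RNA libraries separately. The members and gene lists were chosen with earlier results of these data known. Fits used edgeR 4.0.16 (quasi-likelihood test, Benjamini-Hochberg adjustment, threshold 0.05) and DESeq2 1.42.0 in R 4.3.3. An exon was tested if its neighbours had 20 reads or more in each library and it had 10 or more in all. Below these minimums, 218 microexons had neighbours too thinly read, 65 had covered neighbours but no read, and 76 had 1 to 9 reads. Genes were scaled by TMM after edgeR's expression filter. SE is that of the log2 difference. Named exons were the 8 lowest p-values in each direction, the 5 highest and 5 lowest control densities among exons with at least 1216 neighbour reads (ties at 0 by most neighbour reads in control), listed genes and exons with shared iCLIP sites; 1 exon with a low p-value and 1 listed exon are not reported here. Exons named outside that rule (SARNP exon 8 and those of ACLY, CALCOCO2 and MED1) were chosen after their values were seen. Replicate numbers come from the titles: deviations of same-numbered knockdown and control libraries correlated at 0.43, 0.86 and 0.88 over genes and at 0.17, 0.24 and 0.35 over exon ratios, so the numbers were taken to pair the libraries. Knockdown replicate 2 also correlated with control replicate 1, at 0.62 over genes. The exon test was tested on simulated counts. Sequences came from GENCODE release 29 transcripts by matching lengths. No coordinates were converted.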

Additional observations from a re-analysis of the deposited data

How the results depend on the processing

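No microexon was called under any of 18 alternatives, which included other neighbours, filters, length limits, tools, the replicate block and leaving out each library. Between 1 and 52 had an unadjusted p below 0.05. The replicate block moved the number of called genes that hold microexons to 159, against 18 without it, and DESeq2 gave 49. Leaving out 1 library gave 0 to 63. For DESeq2 and for the fits without a library, the share of all genes called is not given here. The block changed no microexon call. The 16 lowest-p exons were picked by direction in the same libraries, so a kept sign is no sign of stability. YTHDF2 exon 2 reversed to -0.65 with the upstream neighbour only, and the cause was not tested. By library size without neighbours CLASP1 exon 26 had a log2 difference of 0.00, ANXA6 exon 21 -0.14, ANLN exon 19 -0.36, WDR61 exon 3 -0.36, SARNP exon 7 0.95 and COL18A1 exon 10 1.06. Without knockdown replicate 1, NUDT5 exon 8 had 0.68, ANLN exon 19 -0.53 and ZCRB1 exon 3 -0.25, and without control replicate 3 SARNP exon 7 had 0.38. The median relative density was 107.5% in knockdown and 106.7% in control cells per nucleotide of length, 53.1% in knockdown and 52.2% in control against the upstream neighbour, and 43.4% in knockdown and 43.1% in control against the downstream one. It was 38.6% in knockdown and 39.7% in control for 3 to 27 nt, 54.8% in knockdown and 53.3% in control with 100 or more neighbour reads, and 48.4% in knockdown and 47.4% in control in genes with 500 or more counts. Leaving out 1 library gave 48.3% to 49.5% in knockdown and 47.7% to 49.1% in control cells. Without the ANKRD36 and ANKRD36B exons, an alternative chosen after seeing the data, it was 49.5% in each group. The share with a length divisible by 3 was 62.7% for 3 to 27 nt and 61.5% in genes with 500 or more counts. A shared iCLIP site lay near 1.48% of microexons and 2.09% of all internal exons for sites in at least 2 lists, near 0% and 0.0166% at the authors' p of 0.05 or less, near 0.568% and 0.305% within 1000 nt, and near 0.341% to 1.36% of microexons and 0.335% to 1.69% of all internal exons with each list left out. The tested microexons had a median of 125 reads over the 6 libraries, which limits their precision.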
